A study of Mus musculus with 6 samples.

Results

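AP-1 is the transcription factor formed by pairs of Fos and Jun proteins and of their relatives. Its 10 genes were Fos, Fosb, Fosl1, Fosl2, Jun, Junb, Jund, Atf3, Batf and Jdp2. They were followed in samples described as endothelial cells that had entered gel plugs with or without the protein MFAP5. The members were the probe sets whose platform annotation gave exactly 1 gene symbol equal to one of these names. This rule found 15 of the 45037 probe sets tested, and it gave values for all 10 genes among 18193. Both groups came from Balb/c nude mice, an athymic strain that makes few T cells, with Matrigel plugs implanted in the peritoneal cavity. Matrigel is a gel of basement membrane proteins. The control group had 3 samples from plugs without recombinant MFAP5, and the MFAP5 group had 3 samples from plugs reconstituted with it. MFAP5 is a secreted glycoprotein of elastic microfibrils. The time in the animal, the dose of MFAP5 and the number of animals per sample were given by none of the sources used here, so the p-values measure the spread between these samples, which may be partly technical. The comparison asked how transcripts of these samples differed when the plug contained MFAP5. Markers of adipocytes and neutrophils also differed between the groups, as given below, so the samples cannot be taken as endothelial cells alone.

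AP-1 proteins share a basic region that contacts DNA and a leucine zipper that joins 2 of them. Fos proteins do not pair with themselves and need a Jun partner, while Jun proteins can also pair with each other. Fos, Fosb, Jun, Junb and Atf3 are immediate early genes: growth factors, cytokines, shear stress and cell injury switch them on within minutes through MAP kinases, without new protein synthesis. In endothelial cells AP-1 is known to act in migration, in vessel growth and in the response to inflammatory signals.

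The signals were relative. In the deposited table the median of every probe set across the 6 arrays was 0, so a value of 1 stands for a signal 2-fold above that median if the log base is 2, as was taken here. Levels of different genes could not be compared, and whether the endothelial markers were present at a high level could not be read. None of 12 endothelial markers passed limma's test (3 at an unadjusted p under 0.05, as were 19.7% of all genes). Those 3, Tek, Pecam1 and Emcn, were lower with MFAP5. Of the 12 markers 9 were lower and 3 higher, where 34.4% of all genes were higher, and the median difference was -0.195 (MFAP5 minus control). Array medians of the endothelial markers ran from -0.075 to 0.20 in the controls and from -0.17 to -0.015 with MFAP5. Control replicate 1 stood apart: over all probe sets its values correlated at -0.028 and 0.020 with the other controls, which correlated at 0.69 with each other. The number of arrays limits the precision.

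With MFAP5, Atf3 rose 2.99-fold and Jun 1.60-fold, and no AP-1 gene fell past the threshold. These 2 of 10 genes passed limma's test at a Benjamini-Hochberg adjusted p under 0.05. Over all genes tested, 0.759% rose and 2.79% fell. The median difference of the 10 genes, MFAP5 minus control on the log2 scale, was 0.40, while that of all genes was -0.079. In 7 of the 10 genes, Fos, Fosb, Fosl2, Jun, Junb, Jund and Atf3, all 3 MFAP5 arrays lay above all 3 control arrays, a position held by 6.51% of all genes. No member had all MFAP5 arrays below the controls, where 17.8% of all genes did. Among the probe sets 4 of 15 rose, 1 each of Fosl2, Jun, Jund and Atf3, against 1.56% of all probe sets. None of the 15 fell in limma (7 had an unadjusted p under 0.05, all of them higher), against 1.72% of all probe sets. As genes, 8 of the 10 members had an unadjusted limma p under 0.05, among them Batf with a lower signal, where 19.7% of all genes did.

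**Figure D1:**
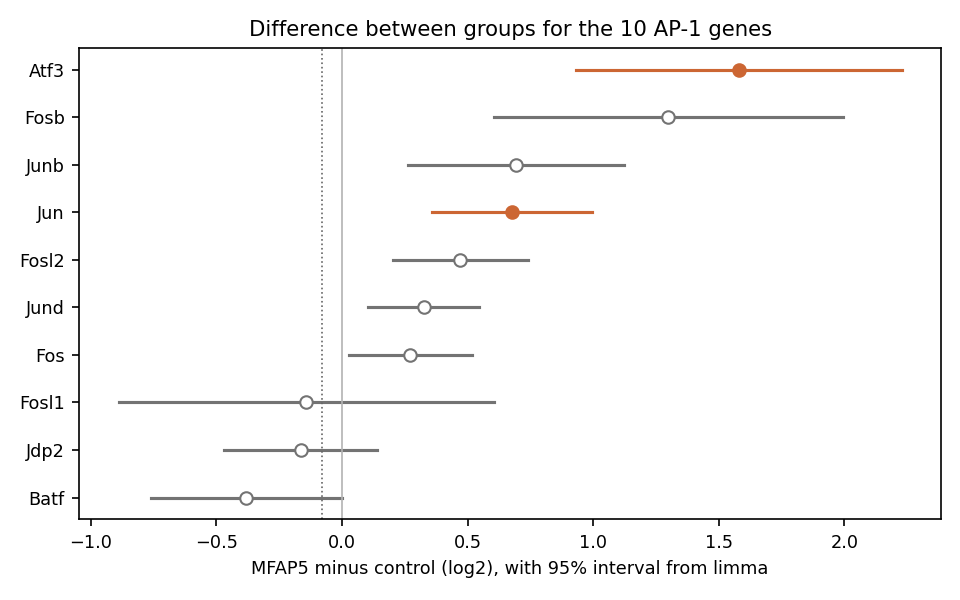
Difference between the groups (MFAP5 minus control, log2, horizontal axis) for each AP-1 gene, n = 3 arrays per group. Bars are 95% intervals from limma, filled orange points passed the adjusted threshold, and the dotted line marks the median of all genes at -0.079. Atf3 (1.58) and Jun (0.68) passed; Fosl1, Jdp2 and Batf lay below 0.

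Promoters are shown for Atf3, Fosb, Junb, Fos and Jun, whose signals were highest in MFAP5 replicate 3 and lowest in MFAP5 replicate 2. Jund and Fosl2 also had higher signals with MFAP5 but are not shown, and their windows held none of the marked letters. Jund correlated with Atf3 as closely as Jun did (both 0.89). Each line holds the 130 bases before the RefSeq start of the gene (build GRCm38.p6), read 5′ to 3′ on the strand of the gene. Capitals mark the letters TGACG on either strand, the core of the cAMP response element that CREB and ATF proteins bind, or in Jun the letters TGACATCA, a known variant of the AP-1 site through which Jun protein acts on its own gene.
Atf3, chr1:191183334-191183463, minus strand: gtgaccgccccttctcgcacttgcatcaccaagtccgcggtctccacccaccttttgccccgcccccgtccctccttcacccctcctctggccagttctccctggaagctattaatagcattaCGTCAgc
Fosb, chr7:19310046-19310175, minus strand: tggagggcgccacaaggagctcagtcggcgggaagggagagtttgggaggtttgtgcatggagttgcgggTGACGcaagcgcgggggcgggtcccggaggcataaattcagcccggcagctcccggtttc
Junb, chr8:84978749-84978878, minus strand: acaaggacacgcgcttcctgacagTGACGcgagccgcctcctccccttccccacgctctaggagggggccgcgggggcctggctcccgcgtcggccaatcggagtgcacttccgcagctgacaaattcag
Fos, chr12:85473760-85473889, plus strand: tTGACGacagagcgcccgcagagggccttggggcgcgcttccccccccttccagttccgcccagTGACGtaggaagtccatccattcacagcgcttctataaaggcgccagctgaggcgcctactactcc
Jun, chr4:95052223-95052352, minus strand: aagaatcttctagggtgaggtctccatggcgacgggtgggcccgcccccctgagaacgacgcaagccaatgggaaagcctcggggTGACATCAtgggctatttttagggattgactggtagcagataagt

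The RefSeq table held windows for 9 members, with 3 starts for Jdp2 and 1 for each of the others. In the 250 bases before the start, TGACG was found in Atf3, Fosb, Junb, Fos (2 matches), Batf and 1 of the 3 starts of Jdp2. It was not found in Jun, Jund or Fosl2. Of 32851 windows of the same length over all genes, 17.8% held TGACG. TGACATCA was found in Jun alone among these members, and in 2.93% of all windows. The full element TGACGTCA, the AP-1 site TGANTCA and the CArG box of serum response factor were searched on both strands as well and were found in no member window. All windows held them at 1.55%, 6.75% and 1.47%. Bases further upstream than 250 were not searched, so a site there would have been missed. The full element contains TGACG on both strands, and the 4 letter patterns can overlap one another. These motifs were chosen after the values had been seen, and Batf and Jdp2, which hold TGACG, were not higher with MFAP5.

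Among the Jun proteins, which can pair with each other or with a Fos protein, Jun itself rose. The Jun signal, the mean of its 2 probe sets, was -0.12, -0.44 and -0.45 in control replicates 1, 2 and 3 and 0.42, 0.12 and 0.49 in MFAP5 replicates 1, 2 and 3. The lowest MFAP5 array was replicate 2 and the highest control was replicate 1, and the groups did not overlap. The difference was 0.68 ± 0.14 (SE, n = 3 per group; limma adjusted p = 0.0367). Both Jun probe sets lay in this direction: 1448694_at rose by 0.63 (adjusted p = 0.0293, and 0.0963 to 0.140 without control replicate 2 or 3 or MFAP5 replicate 1 or 3), while 1417409_at was at 0.72 with a wider spread (adjusted p = 0.0838).

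Junb, which restrains Jun in many cells and is itself induced early, had 1 probe set. Its signals were -0.32, -0.089 and -0.088 in the control arrays, against 0.64, 0.088 and 0.85 in the arrays with MFAP5. MFAP5 replicate 2 stood just above the controls, while replicates 1 and 3 stood clearly apart from them. The Junb difference of 0.69 ± 0.19 was as large as that of Jun but missed the threshold (adjusted p = 0.0884), and its 95% interval ran from 0.26 to 1.12. Without MFAP5 replicate 2, its lowest array of that group, the difference was 0.91 and passed (limma adjusted p = 0.0137). Leaving out the lowest array raises the difference, so that pass adds no separate evidence. This was the only 1 of 14 alternatives in which Junb passed, and the adjusted p reached 0.312 with the unmoderated statistic.

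Jund, the Jun protein that most resting cells already make, showed a smaller difference with little spread. The Jund signals were -0.097, -0.16 and -0.25 in the control arrays, against 0.11, 0.14 and 0.22 in the arrays with MFAP5. All MFAP5 arrays lay close together and above the controls, yet the gene missed the threshold (difference 0.33 ± 0.097, adjusted p = 0.115). Its probe sets disagreed. Probe set 1449117_at rose by 0.58 ± 0.12 (adjusted p = 0.0415), with signals of -0.18, -0.32 and -0.46 in the control arrays, against 0.18, 0.29 and 0.34 in the arrays with MFAP5. The call of 1449117_at held only without control replicate 1 among the 6 fits with 1 array left out (adjusted p from 0.0927 to 0.177 in the other 5), and it was lost with the replicate block (0.0589). The other probe set, 1440265_at, differed by 0.066, with overlapping groups and all values between -0.042 and 0.097.

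**Figure D2:**
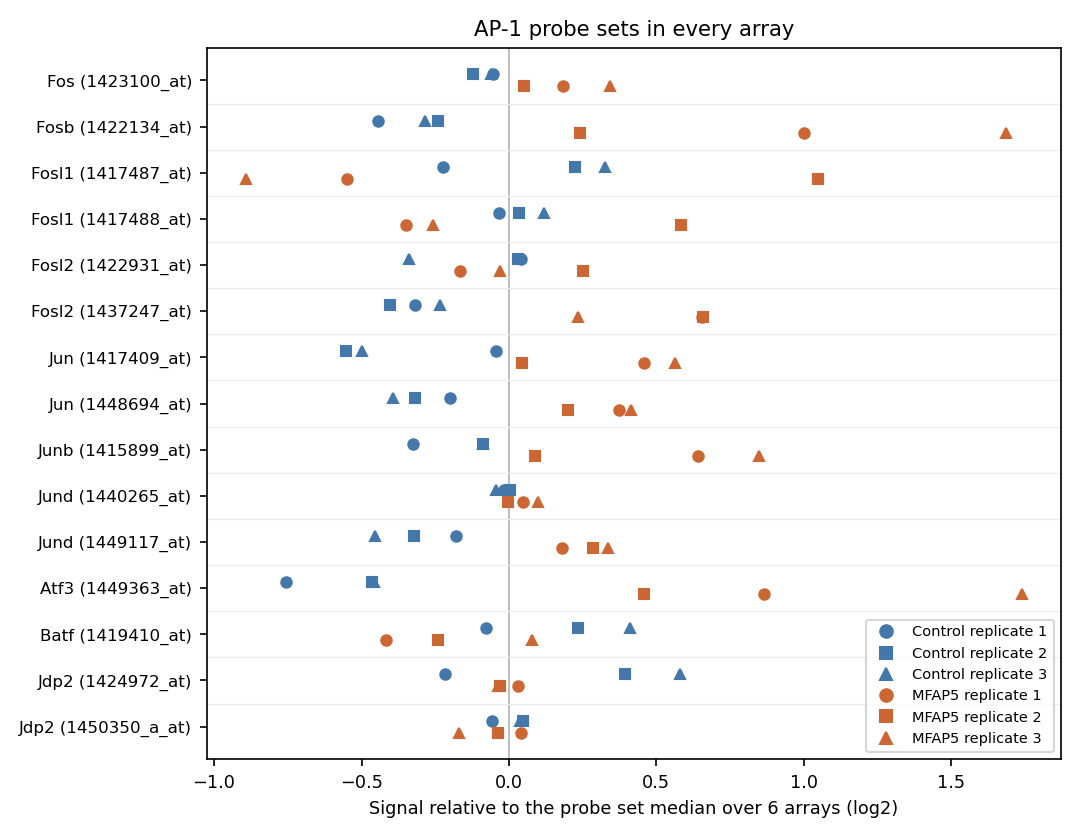
Signal of each of the 15 probe sets of the AP-1 genes in every array, relative to the median of that probe set (log2, horizontal axis); blue points are controls, orange points MFAP5, and the shape gives the replicate. Groups are apart in Fos, Fosb, Junb, Atf3, both Jun probe sets and 1 each of Fosl2 and Jund, and overlap in the rest.

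Of the Fos proteins, which bind DNA only with a partner, none passed as a gene. Fosb, an immediate early member, had the largest difference of the 4, at 1.30 ± 0.30, a 2.46-fold higher signal. Its signals were -0.44, -0.24 and -0.29 in the control arrays, against 1.00, 0.24 and 1.69 in the arrays with MFAP5. The controls lay close together, while the MFAP5 arrays spread widely, again with replicate 2 lowest and replicate 3 highest. Fosb missed the threshold narrowly (adjusted p = 0.0572; 95% interval 0.60 to 1.99). It passed in 4 of 14 alternatives. These were the fit without MFAP5 replicate 2 (difference 1.67, limma adjusted p = 0.00491) and the fit with quantile normalization (0.0400). The others were those with array weights (0.0298), under which 16.8% of all genes passed, and with the replicate number as a block (0.0409). In the remaining 10 Fosb did not pass (adjusted p up to 0.292), among them the fits without control replicate 2 (0.181) or 3 (0.200).

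Fos, the founding member of the family, differed far less than Fosb. Its single probe set had signals of -0.053, -0.12 and -0.060 in the control arrays, against 0.18, 0.053 and 0.34 in the arrays with MFAP5. The groups did not overlap, and the MFAP5 arrays came in the same order as for Fosb. The difference of 0.27 ± 0.11, a 1.21-fold higher signal, did not pass (adjusted p = 0.214; 95% interval 0.026 to 0.52).

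Fosl2, the Fos-related antigen 2, had probe sets that disagreed. Probe set 1437247_at rose by 0.83 ± 0.15 (adjusted p = 0.0218), from -0.32, -0.40 and -0.23 in the controls to 0.65, 0.66 and 0.23 with MFAP5. That call was lost in 4 of the 6 fits with 1 array left out, those without control replicate 2 or 3 or MFAP5 replicate 1 or 2 (adjusted p from 0.0668 to 0.103). Probe set 1422931_at showed 0.041, 0.030 and -0.34 in the control arrays, against -0.16, 0.25 and -0.030 in the arrays with MFAP5, so that its groups overlapped and its difference was 0.11. Their mean, the gene value, differed by 0.47 ± 0.12 (adjusted p = 0.0695). In Fosl2 the highest MFAP5 array was replicate 2, the array that was lowest for Fosb and Fos.

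Fosl1, the Fos-related antigen 1 of migrating and transformed cells, had no common direction among the MFAP5 arrays. Its signals were -0.13, 0.13 and 0.22 in the control arrays, against -0.45, 0.82 and -0.57 in the arrays with MFAP5. Replicate 2 was the highest of all 6 arrays, and replicates 1 and 3 were the lowest. The 2 probe sets had the same pattern, at 1.05 and 0.58 in MFAP5 replicate 2 and between -0.89 and -0.26 in replicates 1 and 3. The gene difference was -0.14 ± 0.33 (adjusted p = 0.831), and with a 95% interval from -0.89 to 0.60 a change of either sign was not detectable with these arrays. Its sign turned without MFAP5 replicate 1 (0.047) and without MFAP5 replicate 3 (0.11).

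Atf3, a stress-induced relative that pairs with Jun proteins and as a pair with itself represses transcription, had the largest difference of the family. Its signals were -0.76, -0.46 and -0.46 in the control arrays, against 0.86, 0.46 and 1.74 in the arrays with MFAP5. The gap between the groups was wide even for MFAP5 replicate 2, the lowest of its group. The difference was 1.58 ± 0.28 (SE, n = 3 per group; adjusted p = 0.0209), with a 95% interval from 0.93 to 2.23.

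Batf, a small relative best known from lymphocytes, where it pairs with Jun proteins, pointed the other way without passing. Its signals were -0.079, 0.23 and 0.41 in the control arrays, against -0.42, -0.24 and 0.079 in the arrays with MFAP5. MFAP5 replicate 3 lay above control replicate 1, so the groups overlapped, and the difference was -0.38 ± 0.17 (adjusted p = 0.252; 95% interval -0.76 to -0.0015). It passed in 1 alternative, array weights, at -0.52 (adjusted p = 0.0413). None of 9 markers of B, T and NK cells passed, with 2 at an unadjusted p under 0.05, and 8 of the 9 had a lower mean with MFAP5. Their array medians were -0.010, 0.12 and 0.16 in the controls and ran from -0.082 to -0.027 with MFAP5. Their part in the Batf value was not tested, and in bulk samples fewer cells of a type and less RNA per cell cannot be told apart.

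Jdp2, the Jun dimerization protein, a repressor that pairs with Jun, overlapped between the groups. Its signals were -0.14, 0.22 and 0.31 in the control arrays, against 0.035, -0.034 and -0.10 in the arrays with MFAP5. Control replicate 1 was the lowest of all arrays and the other controls were the highest. The difference was -0.17 ± 0.13 (adjusted p = 0.515; 95% interval -0.47 to 0.14), and neither of the 2 probe sets passed, at -0.27 and -0.065.

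Some members shared an order of the 3 MFAP5 arrays, while Jund, Batf and Jdp2 followed neither of the orders below. The orders were read from these same values, and the share of all genes that have them was not counted. Atf3, Fosb, Junb, Fos and Jun were highest in replicate 3 and lowest in replicate 2. Fosl1 and Fosl2, as means of their probe sets, were highest in replicate 2 and lowest in replicate 3. Single probe sets did not all share this order. Fosl2 probe set 1437247_at was nearly equal in replicates 1 and 2 (0.65 and 0.66). Fosl2 probe set 1422931_at (-0.16) and Fosl1 probe set 1417488_at (-0.35) were lowest in replicate 1. Over the 6 arrays the Pearson correlation with Atf3 was 0.98 for Fosb, 0.97 for Fos, 0.96 for Junb, 0.89 for Jun and 0.89 for Jund. It was 0.64 for Fosl2 and ran from -0.44 to -0.38 for Fosl1, Jdp2 and Batf. These values describe 6 arrays that fall into the 2 groups compared, so any pair of genes that differ between the groups correlates. Of all 18192 other genes, 16 correlated more closely with Atf3 than Fosb did, and 64 more closely than Fos.

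**Figure D3:**
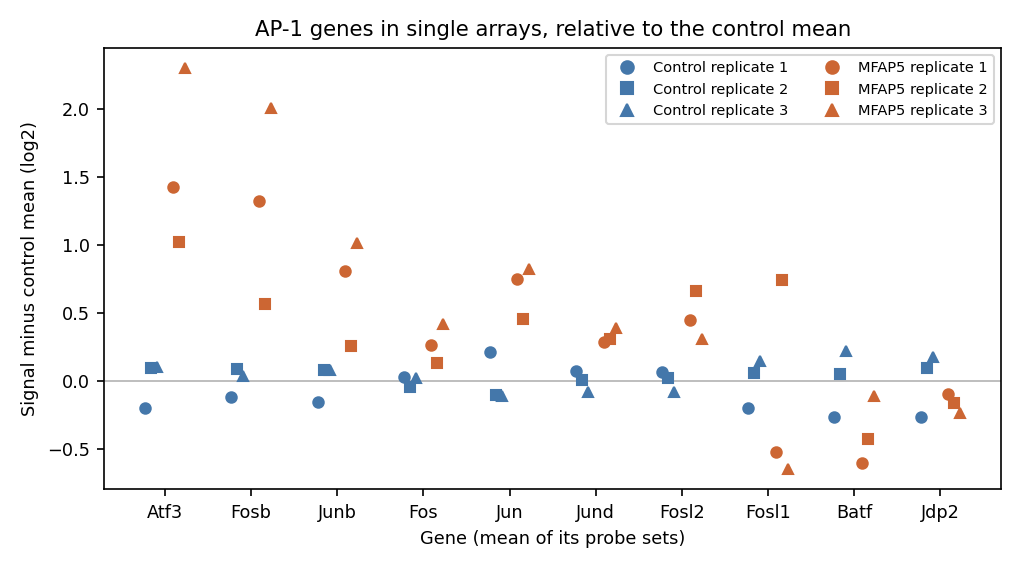
Signal of each AP-1 gene in every array minus the mean of the 3 controls (log2, vertical axis); blue points are controls, orange points MFAP5, and the shape gives the replicate. MFAP5 replicate 2 (square) is the lowest orange point for Atf3, Fosb, Junb, Fos and Jun, and the highest for Fosl2 and Fosl1.

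The 5 genes closest to Atf3 were Mtrex, an RNA helicase of the nuclear exosome (r = 0.997 over 6 arrays), Tmem164 (0.994), 6330407A03Rik (0.991), Btg2, an antiproliferative early response gene (0.991), and Sqstm1, the autophagy receptor p62 (0.991). Of these Btg2 rose, by 1.03 ± 0.20 (adjusted p = 0.0267). In MFAP5 replicates 1, 2 and 3 Btg2 stood at 0.60, 0.21 and 1.09; it was named for its likeness to Atf3 over these arrays, so its order there is not a further result. Its call was lost without control replicate 2 or 3 or MFAP5 replicate 1 (adjusted p from 0.0813 to 0.122). The others did not pass, with differences from 0.12 for Mtrex to 1.17 for 6330407A03Rik (adjusted p from 0.0552 to 0.500).

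The calls of Atf3 and Jun rested on few arrays. Both kept their direction in all 14 alternatives, which the lack of overlap fixes for the fits with 1 array left out. The variance trend and the unmoderated statistic leave the difference itself unchanged, so its direction could not turn there. Atf3 missed the threshold without control replicate 2 (adjusted p = 0.0913), control replicate 3 (0.0888) or MFAP5 replicate 1 (0.0556). Jun missed it without control replicate 2 (0.155), control replicate 3 (0.170), MFAP5 replicate 1 (0.124) or MFAP5 replicate 3 (0.1004). With the level of the bacterial hybridization spike-ins as a covariate their adjusted p was 0.0706 and 0.102. That level was 0.64 and 0.65 in control replicates 2 and 3 and -0.32 in control replicate 1. It ran from -0.038 to -0.0065 in the MFAP5 arrays. Without control replicate 1, the array that stood apart, 4 members passed, Atf3, Jun, Fosl2 and Jund, while 14.7% of all genes passed in either direction. Without MFAP5 replicate 2, 4 members passed as well, Atf3, Jun, Fosb and Junb, with 2.58% of all genes.

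**Figure D4:**
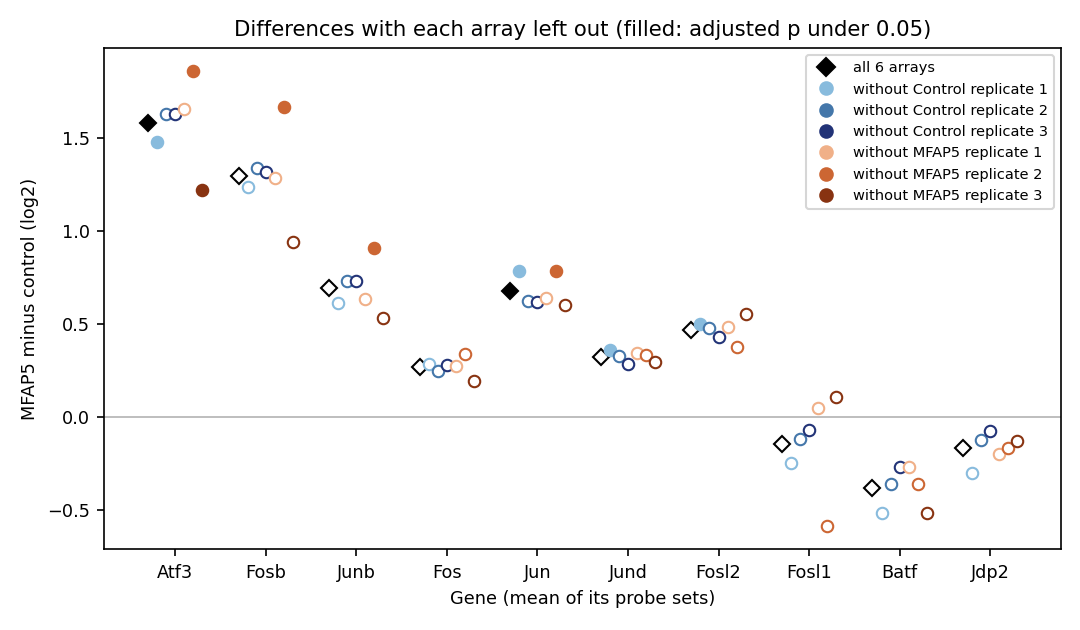
Difference of each AP-1 gene (MFAP5 minus control, log2, vertical axis) with all 6 arrays (diamonds) and with each array left out (circles); filled symbols have a limma adjusted p under 0.05. Atf3 ranges from 1.22 to 1.86 and Fosb from 0.94 to 1.67, while Fosl1 lies on both sides of 0.

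Proteins outside the Fos and Jun families with the same basic leucine zipper fold, several of which pair with AP-1 proteins, moved in both directions. Of 41 genes on this list 37 were measured; 2 rose and 2 fell, where 3.55% of all genes passed in either direction, and the median difference was 0.094. The genes that fell were Dbp and Hlf, activators of the PAR family whose levels follow the circadian clock. Dbp was at 0.27, 0.37 and 0.38 in the control arrays, against -0.27, -0.92 and -0.50 in the arrays with MFAP5, a difference of -0.91 ± 0.16 (adjusted p = 0.0197). Hlf was at 0.44, 0.52 and 0.25 in the control arrays, against -0.42, -0.33 and -0.17 in the arrays with MFAP5, a difference of -0.71 ± 0.12 (adjusted p = 0.0145). Both lay lower in every MFAP5 array. Nfil3, the repressor that competes with them for the same DNA sites, rose by 0.57 ± 0.10 (adjusted p = 0.0239), from -0.30, -0.21 and -0.22 to 0.21, 0.29 and 0.47. Nfe2l2, the NRF2 factor of the oxidative stress response, rose by 0.70 ± 0.15 (adjusted p = 0.0467). The Nfe2l2 signals were -0.023, -0.20 and -0.26 in the control arrays, against 0.54, 0.25 and 0.82 in the arrays with MFAP5, again lowest in replicate 2 of the MFAP5 group. Its 2 probe sets disagreed, at 1.26 and 0.14, and neither passed alone (adjusted p = 0.0628 and 0.701). These calls rested on single arrays too: without control replicate 2 all 4 were lost, Dbp also without control replicate 3 and Hlf without MFAP5 replicate 1. Nfe2l2 was called without control replicate 1 or MFAP5 replicate 2 but with no other array left out, and Nfil3 without control replicate 1 alone.

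No gene of the MAP kinase cascades, of the factors that act on the Fos and Jun promoters or of the ubiquitin ligases that degrade Jun passed limma's test. Of 39 listed genes 34 were measured, with 0 passing where 3.55% of all genes did, 7 at an unadjusted p under 0.05 where 19.7% of all genes were, and a median difference of 0.015. The unmoderated statistic called 0 as well, with array weights or with the probe set of largest SD 1 passed, and differences ran from -0.38 to 0.61. Transcript signals do not show whether these kinases were active.

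Of 25 genes known as AP-1 targets 22 were measured; 2 rose, where 0.759% of all genes did, and 1 fell, where 2.79% did, and the median difference was 0.062. The target with the largest difference was Il6, the cytokine interleukin 6, which rose by 2.61 ± 0.55 (adjusted p = 0.0407). Il6 stood at -0.60, -0.59 and -0.49 in the control arrays, against 2.64, 0.49 and 3.01 in the arrays with MFAP5, with the replicate order of Atf3 and Fosb. Ptgs2, the inducible cyclooxygenase, rose by 1.44 ± 0.23 (adjusted p = 0.0133), from -0.35, -1.28 and -1.25 to 0.51, 0.56 and 0.35, and its MFAP5 arrays lay close together. Mmp9, a gelatinase also abundant in neutrophils, fell by 0.87 ± 0.12 on the log2 scale (adjusted p = 0.00808), from 0.26, 0.53 and 0.48 to -0.52, -0.56 and -0.26. Of 8 measured neutrophil markers 3 fell and none rose, with array medians from 0.087 to 0.56 in the controls and from -0.29 to 0.0054 with MFAP5. Their part in the Mmp9 value was not tested. Ptgs2 was not called without control replicate 2 or 3 (adjusted p = 0.0679 and 0.0728), nor Mmp9 without control replicate 3 (0.0546). Il6 was called only without MFAP5 replicate 2 among the 6 fits with 1 array left out. With a variance trend on the mean the Il6 difference was the same but its SE was 308, against 0.55 in the main fit. The limma adjusted p of 0.997 in that fit cannot be read as a test of Il6, because a mean on this relative scale is not a signal level. That limit applies to every gene in that fit, also to Atf3 and Jun, which passed in it.

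Other measures differed between the same arrays. Over all genes 2.79% fell, 0.759% rose and 17.8% had all MFAP5 arrays below the controls. Of 9 measured adipocyte markers 8 fell and all 9 were lower in every MFAP5 array, with list medians from 1.15 to 1.35 in the controls and of -3.99, -2.64 and -0.97 in MFAP5 replicates 1, 2 and 3. Of 10 heat shock genes 1 rose, the inducible chaperone gene Hspa1b, at 0.62, 1.29 and 0.51 in the MFAP5 arrays against -0.57, -0.67 and -0.70 in the controls, a difference of 1.45 ± 0.19 (adjusted p = 0.00520). The list median of the heat shock genes ran from -0.19 to -0.085 in the controls and from 0.00097 to 0.13 with MFAP5. For beta-actin the signal at the 3' end minus that at the 5' end, a sign of RNA integrity, ran from -0.053 to -0.0048 in the controls and from 0.036 to 0.14 with MFAP5, without overlap, on the relative log2 scale. The same measure of Gapdh overlapped between the groups, at -0.16, 0.033 and -0.033 in the controls and at 0.086, -0.038 and 0.034 in MFAP5 replicates 1, 2 and 3. None of 10 macrophage markers passed (1 at an unadjusted p under 0.05), with array medians from -0.048 to 0.038 and from -0.044 to 0.12. None passed among 6 mesothelial markers and 7 of pericytes and smooth muscle (1 each at an unadjusted p under 0.05). Of 7 fibroblast markers 1 fell, Pi16 at -0.93, while the other 6 had positive differences that did not pass and the list median was 0.27, with array medians from -0.27 to 0.011 in the controls and from -0.0037 to 0.19 with MFAP5. The part of these measures in the AP-1 values was not tested.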

How the data were processed

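RNA of 3 control and 3 MFAP5 samples was hybridized to single-colour Affymetrix arrays. MAS5 is named in the submitters' processing notes; no source used here gives its scaling or later steps. The authors deposited log2 signals, as read from the values: each probe set had a median of 0 over 6 arrays and the widest spanned 8.24 units. A natural log was not excluded, and folds would then be too small; that higher values mean more signal was assumed. Without levels no filter on dim probe sets was possible. Array medians ran from -0.026 to 0.049. After leaving out 64 control probe sets, 34945 of 45037 had 1 symbol, 932 several, and 9160 were not listed in the platform annotation; probe sets of a gene were averaged. The test was limma's (version 3.58.1, in R version 4.3.3), two-sided, with eBayes lacking a trend, no replicate block, and p-values adjusted by Benjamini-Hochberg over all features (threshold 0.05). The procedure was tested on simulated data. The members, lists and naming rule (all members, up to 4 passing genes per list by p, the 5 genes most correlated with the member of smallest p) were chosen with earlier results of these data known. Alternatives were quantile normalization, median centring, a variance trend on the mean, array weights, a replicate block, the unmoderated statistic, the spike-in covariate (mean of 14 probe sets), the probe set of largest SD and leaving out each array.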

Additional observations from a re-analysis of the deposited data

How the results depend on the processing

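The count of AP-1 genes past the threshold was 2, and it was 6 (5 higher and 1 lower) with array weights, under which 16.8% of all genes passed against 3.55%, 0 with the unmoderated statistic and 0 with the spike-in covariate, and 0 to 4 with 1 array left out. For AP-1 probe sets the count of 4 became 7, 0 and 0 in the same settings, and 0 to 6 with 1 array left out. For other leucine zipper genes the count of 4 became 11, 0 and 1, 2 when the most variable probe set stood for each gene, and 0 to 8 with 1 array left out. For MAP kinase and promoter factor genes the count of 0 became 1 with array weights and 1 with the most variable probe set. For AP-1 targets the count of 3 became 0 with the unmoderated statistic and 0 to 3 with 1 array left out. The unmoderated statistic called 1 of all genes. Fosl1, at -0.14, ran from -0.59 to 0.11 with 1 array left out and turned positive without replicate 1 (0.047) or replicate 3 (0.11) of the MFAP5 group, and the other 9 members kept their direction in the alternatives run. The cause was not tested. Same-numbered samples deviated from their group means with correlations of 0.21, 0.055 and 0.085, so the numbers were not taken as pairs; with the replicate block 3 AP-1 genes, 5 AP-1 probe sets, 4 other leucine zipper genes, 0 kinase and promoter factor genes and 3 targets passed. Under that block 4.08% of all genes and 4.29% of all probe sets passed. Not every sample correlated best with its own number. The relative scale allows no reading of signal over background, so dim probe sets could not be told from bright ones.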
